A study of Mus musculus and Rattus norvegicus with 80 samples.

Results

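UID-12974, UID-7523 and UID-4155 are 3 of the 17019 annotated full-length mouse L1 loci on which reads were counted. They were picked by name for their reads in the uterus against the other organs, UID-12974 because it lies in the transcript Junos and UID-7523 because it lies in Gm26861 and Gm47407. The values that chose them, those of the uterus against other organs, are therefore given as a description without a test. The label that groups them as uterus loci in antisense transcripts holds in full for 1 of the 3. UID-12974 has its highest mean level in the uterus and lies inside an antisense transcript. UID-7523 lies inside such a transcript but has a higher mean level in the testis than in the uterus, and UID-4155 has its highest mean level in the uterus but overlaps no annotated gene.

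Cytoplasmic, polyadenylated RNA of untreated C57BL/6 mice was sequenced as strand-specific read pairs, and 68 mouse libraries are used here. Uteri came from 6 females, 1 of 2.2 mo, 1 of 8 mo, 1 of 8.6 mo, 1 of 8.7 mo and 2 of 16.5 mo. Ovaries, lungs and brains came from 9 females, which include those 6 mice, at 2.2 to 16.5 mo. Male organs were 12 testes and 12 livers of 1.9 to 22.3 mo, 6 brains and 5 lungs of 7.6 and 12.8 mo. The files hold reads on L1 loci only, so the identity of an organ could not be checked against marker genes. Because these are bulk organs, fewer cells that transcribe a locus and less RNA per cell cannot be told apart.

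L1 elements are retrotransposons. A full-length copy carries an internal promoter at its 5′ end and encodes ORF1p and ORF2p, with which the element copies its own RNA into a new genomic site. Most copies carry mutated reading frames, and all 3 loci are on the non-intact list. RNA with L1 sequence may begin at the promoter of the element, or may be part of a longer transcript that runs through the element, as happens for elements in introns. Reads on the strand of the element do not by themselves separate these origins.

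UID-12974 occupies chr4:95111499-95116264 of mm10 on the plus strand, 4766 bases, and lies in an intron of Junos (ENSMUSG00000087366.7, chr4:95051534-95167318). Junos is a noncoding antisense transcript on the same strand that overlaps the start of Jun, which encodes a subunit of the transcription factor AP-1 and is read in the other direction. Of the 8 Junos transcripts in GENCODE M21, 5 run across the element. None has an exon in the counting window, which extends 700 bases upstream and 1000 bases downstream of the element. In the transcript ENSMUST00000125438.7, the last exon before the element ends 10.2 kb away and the next begins 21.2 kb beyond it. The nearest other genes on either side are 4930551L18Rik, a lincRNA 20.1 kb away on the other strand, and Gm28096, a sense intronic transcript 35.5 kb away.

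UID-7523 occupies chr13:10520032-10524999 on the minus strand, 4968 bases. Both transcripts over it run on the plus strand, opposite to the element and to the reads counted on it. Gm26861 (ENSMUSG00000097009.2, chr13:10357595-10797502) is an antisense transcript that overlaps the start of Chrm3, which encodes the muscarinic acetylcholine receptor M3. Of its 7 transcripts, 1 runs across the element and has no exon there. Gm47407 (ENSMUSG00000113758.1, chr13:10517687-10538811) is a lincRNA whose exon 2 lies wholly inside the element. On the strand of the element, Gm36525 lies 14.7 kb away on the 5′ side and Chrm3 159 kb away on the 3′ side.

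UID-4155 occupies chrX:78975722-78980672 on the plus strand, 4951 bases, between Gm23556, a miRNA gene 67.1 kb away, and Gm14751, a processed pseudogene 28.1 kb away. Both are on the other strand. No annotated gene on either strand overlaps it.

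**Figure D1:**
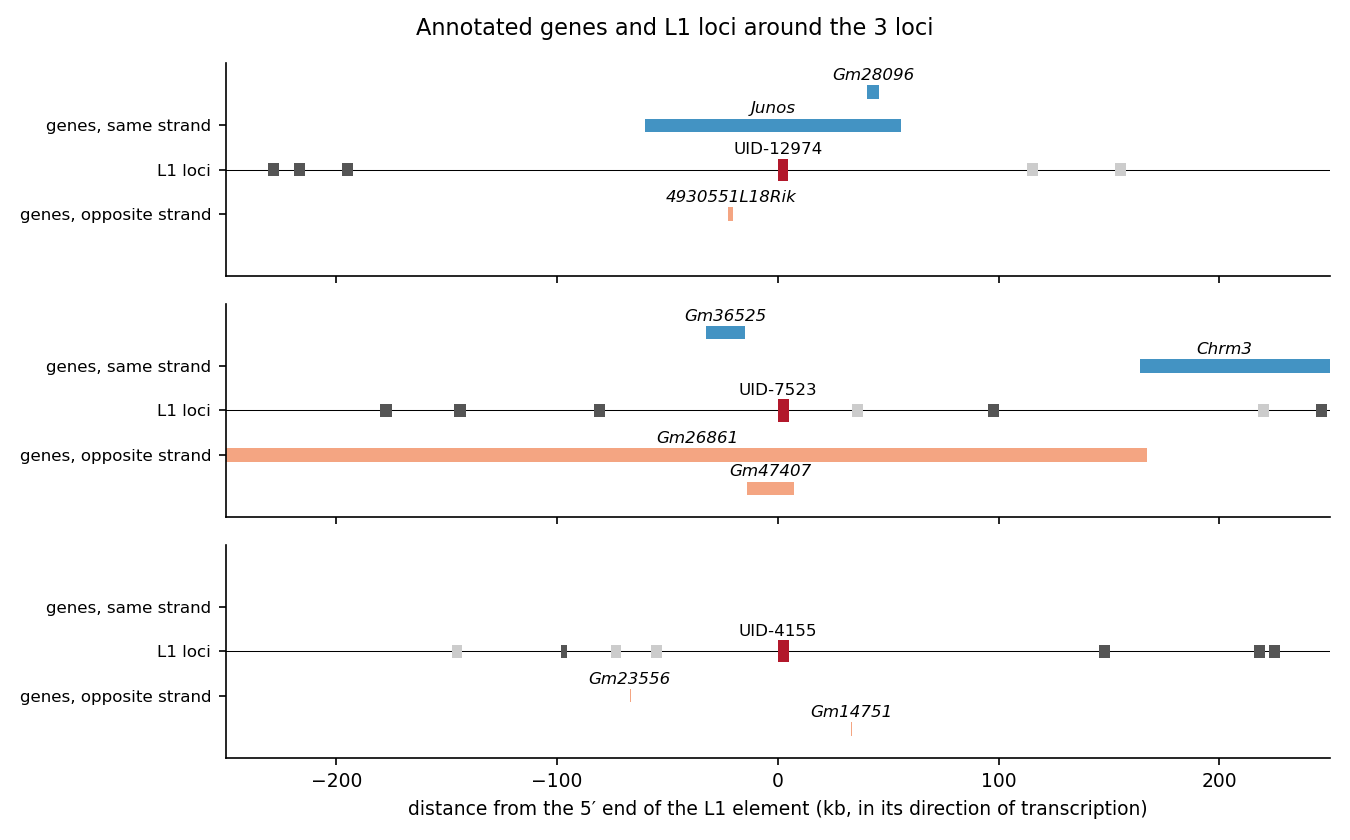
Genes that overlap each of the 3 L1 loci or are nearest to it, and other full-length L1 loci, by distance in kb from the 5′ end of the element in its direction of transcription. Red boxes are the 3 loci, dark grey boxes other L1 loci with at least 1 read in the 68 libraries, light grey boxes those without, blue bars genes on the strand of the element and orange bars genes on the opposite strand. Junos covers UID-12974 on the same strand, Gm26861 and Gm47407 cover UID-7523 on the opposite strand, and no gene covers UID-4155.

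The sequence in which an exon and an L1 element coincide is shown because it is the only exon inside any of the 3 counting windows. Exon 2 of Gm47407 is 54 bases long, at chr13:10524894-10524947 on the plus strand, and its near edge lies 52 bases from the 5′ end of UID-7523. It is printed as in transcript ENSMUST00000221705.1 of GENCODE M21, with exon 2 in capitals (positions 98 to 151 of the transcript) and 20 bases of exons 1 and 3 in lower case.
Gm47407 exon 2: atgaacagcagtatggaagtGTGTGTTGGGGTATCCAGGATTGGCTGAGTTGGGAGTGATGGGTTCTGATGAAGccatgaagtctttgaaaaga
Among 141767 transcripts of this release, the 54 bases were found in 1, Gm47407 itself, and their reverse complement in none. Since reads were counted on the minus strand, a read of spliced Gm47407 RNA is not counted on UID-7523.

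Junos is printed at a pair of annotated starts upstream of UID-12974, because Junos is the only annotated gene that overlaps 1 of the 3 loci on the same strand. RefSeq (GRCm38.p6) gives Junos 7 starts, of which 5 lie upstream of UID-12974 and 2 downstream. The windows below hold 250 bases before and 50 bases after the start. The first, chr4:95094563-95094862, is the nearest upstream start in the RefSeq table, 16.7 kb before the element (the GENCODE transcript ENSMUST00000125438.7 starts nearer, at 12.8 kb), and the second, chr4:95052067-95052366, is the one next to Jun. Both are on the plus strand, and capitals mark matches on either strand to any of 4 motifs. These were TATAAA for the core promoter element of that name, the promoter element CCAAT, the AP-1 binding letters TGANTCA, and the palindromic estrogen response element.
Junos, nearest upstream RefSeq start: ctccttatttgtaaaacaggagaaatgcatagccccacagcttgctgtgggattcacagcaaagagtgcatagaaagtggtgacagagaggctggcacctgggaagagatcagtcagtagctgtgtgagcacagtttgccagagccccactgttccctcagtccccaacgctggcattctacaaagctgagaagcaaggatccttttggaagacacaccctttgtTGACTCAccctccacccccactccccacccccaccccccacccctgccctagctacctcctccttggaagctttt
Junos, start next to Jun: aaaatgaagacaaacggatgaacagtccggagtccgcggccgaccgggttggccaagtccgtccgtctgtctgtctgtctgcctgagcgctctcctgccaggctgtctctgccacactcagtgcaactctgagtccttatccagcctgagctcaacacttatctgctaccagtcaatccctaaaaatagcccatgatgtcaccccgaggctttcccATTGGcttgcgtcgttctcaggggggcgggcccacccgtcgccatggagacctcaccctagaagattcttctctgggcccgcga
The nearest upstream window holds 1 match to TGANTCA, as do 7.81% of the 32851 promoter windows of this length. The window next to Jun holds 1 match to CCAAT, found in 37.4% of windows. Neither holds TATAAA (13.6% of windows) or the estrogen response element (0.07% of windows). No motif overlapped another, and a match describes the letters only.

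The depth was 8.45 M to 51.4 M mapped reads over all libraries, and in uteri it lay between 15.5 M and 35.3 M. Levels are given as reads per 1 M mapped reads (RPM), a scale that compares libraries at 1 locus. The mates of a pair are counted separately, so a single fragment usually gives 2 reads.

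UID-12974 was counted in every uterus, and its level differed widely between them. Mouse 1534 (2.2 mo) had 30 reads, mouse 1338 (8 mo) 174, mouse 1324 (8.6 mo) 271, mouse 1325 (8.7 mo) 12, mouse 1004 (16.5 mo) 207 and mouse 1006 (16.5 mo) 125. In RPM these were 1.12, 4.93, 10.1, 0.774, 10.7 and 3.90, in the same order. The uteri of mice 1004 and 1324 were the highest of all 68 libraries, and that of mouse 1325 was within the range of the lungs. The mean was 5.25 ± 4.30 (SD, n = 6). Among all 17019 loci UID-12974 ranked between place 14 (mouse 1324) and place 30 (mouse 1006) by reads in a uterus.

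In the other organs UID-12974 was lower on average. Testes had 20 to 260 reads and a mean of 2.33 ± 1.63 RPM (n = 12), from 0.784 to 6.93 with the highest value in mouse 1209. Male lungs had 1.39 ± 0.733 (n = 5), ovaries 1.22 ± 1.01 (n = 9), female lungs 1.03 ± 0.434 (n = 9), male brains 0.562 ± 0.441 (n = 6) and female brains 0.456 ± 0.150 (n = 9). Reads were present in every library of these organs. Livers were nearly empty, with 6 reads in all, in 2 of 12 libraries. In this order, from uterus to liver, the ranges of neighbouring organs overlapped except those of female brains (lowest 0.243) and livers (highest 0.0959). The mean of the uteri was 2.25 times that of the testes, a difference smaller than the SD of the uteri. At 12.8 mo the counting window of UID-12974 was 5566 bases instead of 6466, and what this did to the counts of those male libraries was not tested.

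**Figure D2:**
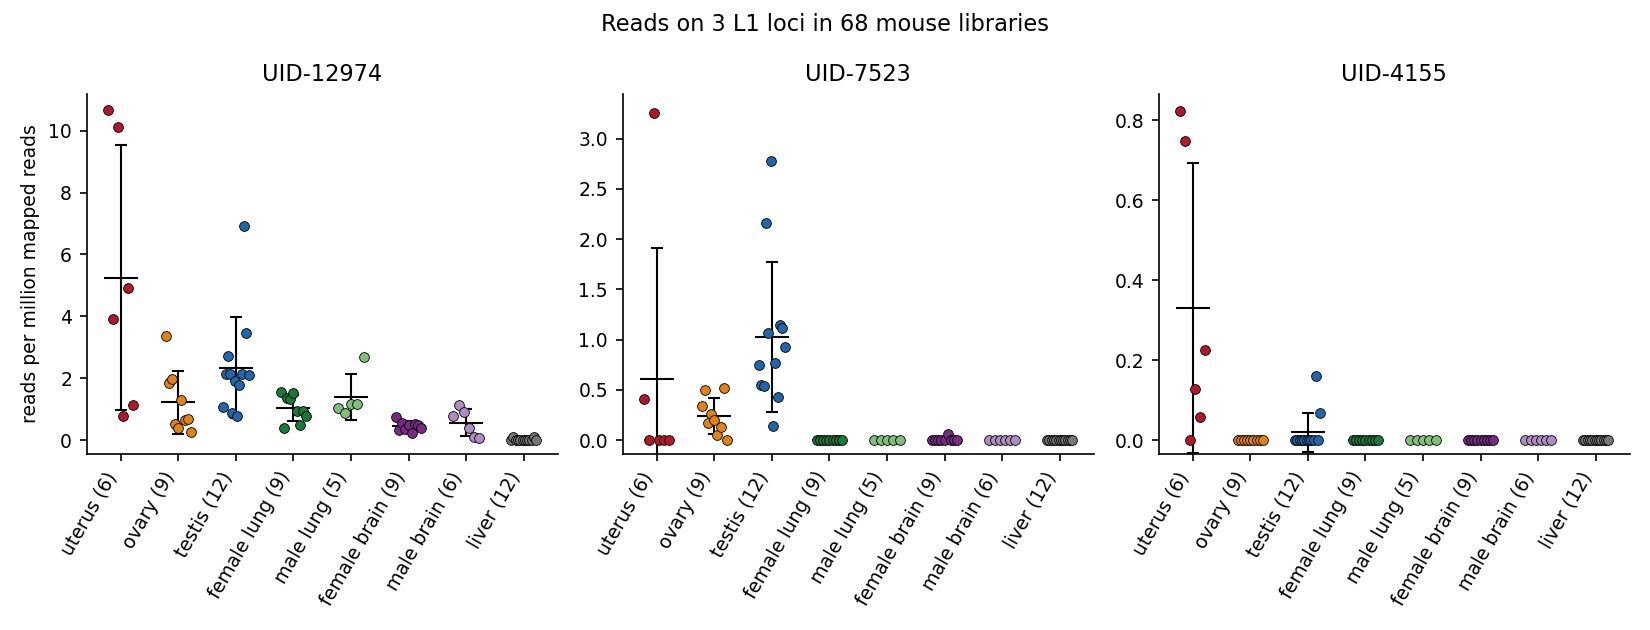
Reads per 1 M mapped reads (RPM) on UID-12974, UID-7523 and UID-4155 in each of 68 mouse libraries, by organ with the number of libraries in brackets. Points are libraries, horizontal lines means and bars ± 1 SD (ends below 0 are cut off). UID-12974 is highest in uteri (mean 5.25), UID-7523 in testes (mean 1.03, against 0.611 in uteri, of which 1 stands at 3.25), and UID-4155 in uteri (mean 0.331).

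Within the 6 females that gave a uterus, UID-12974 was highest in the uterus in 5 mice and in the lung in 1, mouse 1325. In RPM the uterus exceeded the ovary of the same mouse in 6 of 6 mice. The ratio was 5.13 in mouse 1324, 3.79 in mouse 1338, 3.18 in mouse 1004, 2.12 in mouse 1006, 1.73 in mouse 1534 and 1.49 in mouse 1325. In mouse 1325 it rested on 12 reads in the uterus and 16 in the ovary. Per 100000 L1 reads the order of uterus and ovary turned in mice 1325 (50.6 and 61.0) and 1534 (72.0 and 84.8) and held in the others. On that scale the brain, at 121, was the highest organ of mouse 1534. Mice with a high uterus tended to have a high ovary. Ovaries of mice 1004, 1324, 1006 and 1338 had 3.35, 1.98, 1.84 and 1.30 RPM, and those of mice 1534 and 1325 had 0.646 and 0.521.

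**Figure D3:**
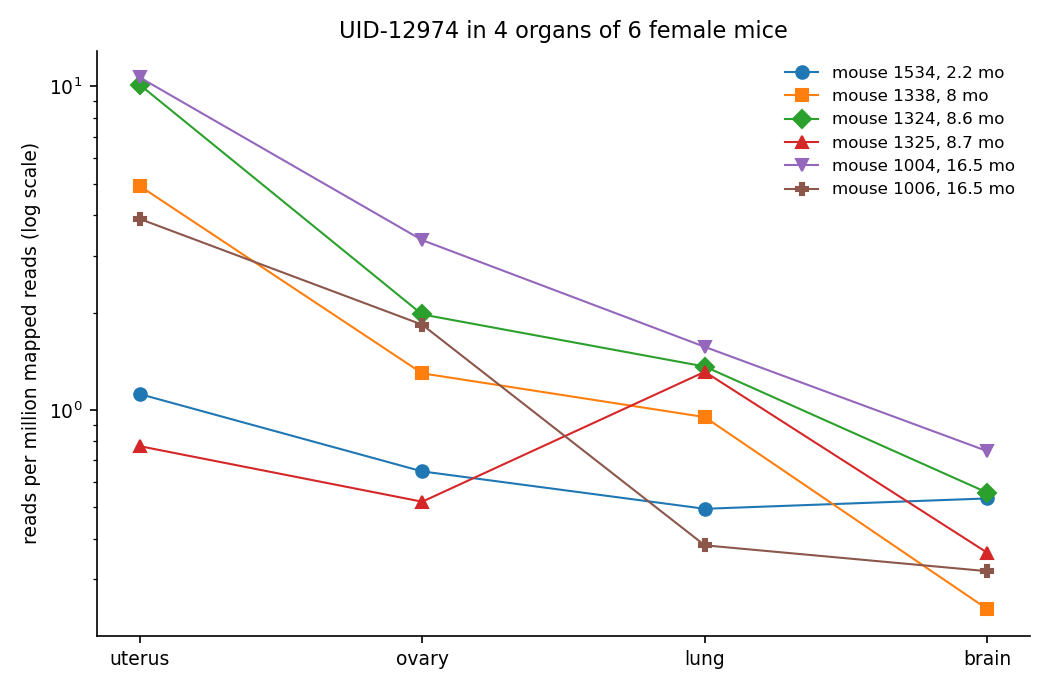
UID-12974 in uterus, ovary, lung and brain of the same 6 female mice, in RPM on a log scale, with 1 line per mouse. The line falls from uterus to ovary in all 6 mice, and in mouse 1325 the lung (1.31) lies above the uterus (0.774).

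The reads on UID-12974 spread along most of the counting window where they were many. In uteri 84.9% (mouse 1324), 87.4% (mouse 1004), 89.7% (mouse 1006) and 73.3% (mouse 1338) of the window was covered by at least 1 read. The uteri with few reads, of mice 1534 and 1325, had 23.2% and 10.8%. In 3 uteri, 2 ovaries and 1 testis the covered bases exceeded the length of the element, so that reads necessarily lay in the flanks too. The excess was 725, 886 and 1034 bases in the uteri of mice 1324, 1004 and 1006, 35 and 542 bases in the ovaries of mice 1324 and 1004, and 957 bases in the testis of mouse 1209. The files do not say where in the window the covered bases lie, and in the other libraries reads in the flanks were not tested.

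Coverage also differed between libraries with like numbers of reads. In female lungs of 8 to 8.7 mo, 26 to 42 reads covered 26.2% to 49.4% of the window, whereas in male lungs of 7.6 mo 46 reads covered 841 bases of it (mouse 1303) and 22 reads 633 bases, or 9.79% (mouse 1209). Each read added 18.3 covered bases in the lung of mouse 1303, against a median of 76.1 over the 9 female lungs. The reads on UID-12974 in these 2 male lungs thus lay on a smaller stretch of the window. Of the male lungs of 12.8 mo, those of mice 899 and 901 were as low, at 20.6 and 21.4 covered bases per read, whereas that of mouse 900 had 56.3. Male brains of 12.8 mo had 24.5 to 50.2. The sequencing methods of the study differ in read length, which bears on covered bases per read. The female lungs of mice 1534 and 1006 had 120.9 and 119.2, more than a read of 100 bases can cover. No male library exceeded 100 on UID-12974, UID-7523 or UID-4155. How far read length adds to the difference in coverage between female and male lungs was not tested.

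**Figure D4:**
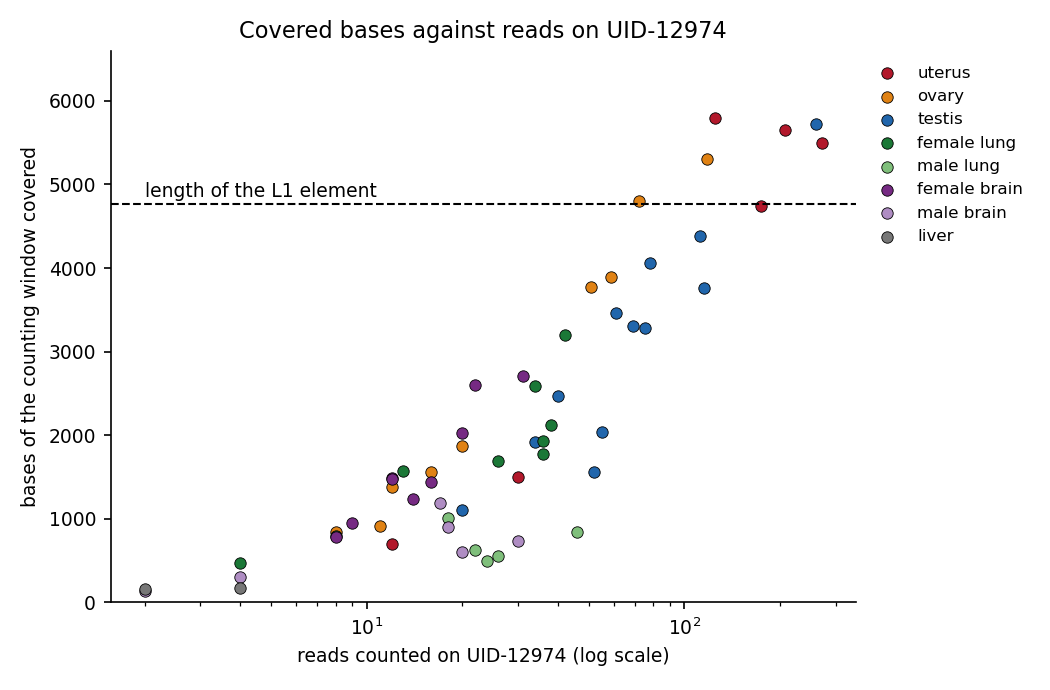
Bases of the counting window of UID-12974 covered by at least 1 read against the number of reads (log scale), with 1 point for each library with reads and the organ by colour. The dashed line is the length of the element, 4766 bases, which 6 libraries exceed, and 4 of 5 male lungs have 18.3 to 28.8 covered bases per read, with male brains of 12.8 mo from 24.5 upwards.

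Whether UID-12974 differed between organs other than the uterus was tested, since that comparison did not choose the locus. Ovaries, female lungs and female brains, 9 of each, entered 1 fit of the edgeR quasi-likelihood test with mapped reads as library size, and 109 loci with at least 10 reads in 9 or more libraries were tested. UID-12974 was the only 1 of the 3 loci that passed this filter. It was higher in ovaries than in brains, with a log2 fold change of 1.42 ± 0.43 (SE, edgeR, Benjamini-Hochberg adjusted p = 0.00461). It was also higher in female lungs than in brains, by 1.19 ± 0.43 on the log2 scale (edgeR, adjusted p = 0.0158). Lungs and ovaries did not differ beyond their spread, with a log2 fold change of -0.23 ± 0.42 for lung against ovary (edgeR, adjusted p = 0.645).

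Calls of this kind were common. Of all loci tested, 60.6% were called between ovary and brain, 64.2% between lung and brain and 47.7% between lung and ovary, so a call for UID-12974 does not set it apart. The median log2 fold change of the 109 loci was 0.75 for ovary against brain, -0.09 for lung against brain and -0.65 for lung against ovary. Relative to these medians UID-12974 stood 0.67, 1.27 and 0.42 higher. Another scaling moved the medians and with them the calls. With DESeq2 size factors the log2 fold change was 0.49 for ovary against brain (adjusted p = 0.184), 0.66 for lung against brain (adjusted p = 0.063) and 0.17 for lung against ovary (adjusted p = 0.657), which turns the last direction, while the distances from the medians were 0.57, 1.21 and 0.58. The split of calls into higher and lower moved as well, from 47 and 19 to 34 and 40 for ovary against brain, from 35 and 35 to 33 and 51 for lung against brain and from 17 and 35 to 25 and 33 for lung against ovary.

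**Figure D5:**
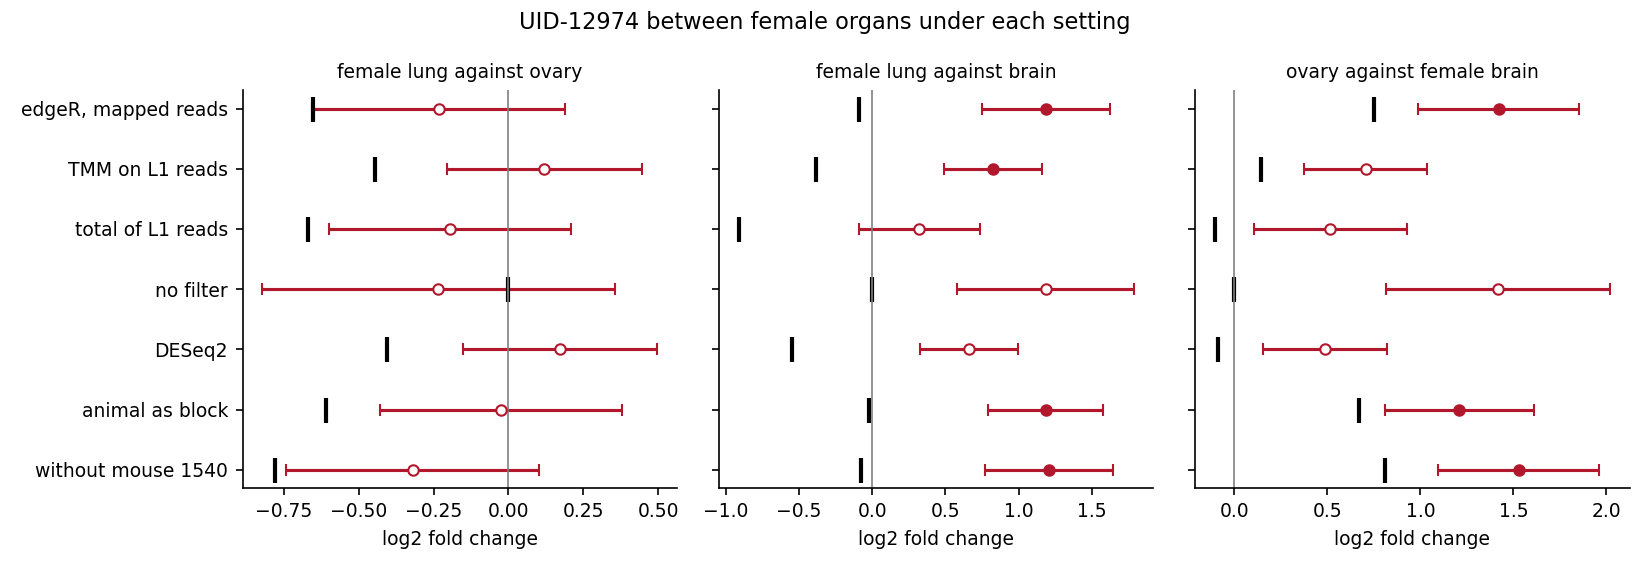
Log2 fold change of UID-12974 between female organs (circles, bars ± 1 SE) under 7 settings, with the median log2 fold change of all loci tested as black ticks. Filled circles have an adjusted p under 0.05. UID-12974 lies right of the median and of 0 in every setting for lung and ovary against brain, whereas its distance from 0 moves with the scaling. For lung against ovary its side of 0 changes with the scaling.

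By age, no call was made for UID-12974 in ovaries or female lungs, the only organs tested, although the group means of ovaries followed age. The 3 ovaries of 2.2 to 3.2 mo had 0.268, 0.646 and 0.684 RPM, the 4 of 8 to 8.7 mo had 0.393, 0.521, 1.30 and 1.98, and the 2 of 16.5 mo had 1.84 and 3.35. The oldest and youngest ovaries did not overlap. The log2 fold change between them was 2.30 ± 0.99 (edgeR, adjusted p = 0.16), beside a median of 1.67 over the 242 loci tested. Of these loci, 0% were called by edgeR, and 62 had an unadjusted p under 0.05. DESeq2 called 11, of which 1 was higher and 10 were lower in the oldest ovaries. With DESeq2 size factors the log2 fold change of UID-12974 was 0.94 and the median 0.40, and with TMM factors they were 0.99 and 0.44. In female lungs of 16.5 mo (0.382 and 1.57) and of 2.2 to 3.2 mo (0.495, 0.769 and 0.947) the values overlapped, and the log2 fold change was 0.51 ± 0.71 (edgeR, adjusted p = 0.879), with 4.2% of 119 loci called. Without the lung of mouse 1004 that difference became -0.90. Male brains had 0.0642 to 0.390 RPM at 7.6 mo and 0.768 to 1.15 at 12.8 mo, without overlap. Male lungs and testes went the other way, with means of 1.93 and 4.16 at 7.6 mo against 1.03 and 1.64 at 12.8 mo. These male differences, between counting windows of unlike length, were not tested.

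Between sexes, female lungs of 8 to 8.7 mo had 0.951, 1.31, 1.36 and 1.52 RPM on UID-12974 and male lungs of 7.6 mo had 1.17 and 2.68. Of the male values, 1 lay within the range of the female lungs and 1 above it. The log2 fold change of female against male lungs was -0.58 ± 0.58 (edgeR, adjusted p = 0.58), beside 16.4% of 110 loci called. Without the lung of mouse 1303 it was 0.14, and with the total of L1 reads as library size it was 1.97 (adjusted p = 0.0202), a scale on which the median of all loci was 2.30. The split of calls, 4 higher and 14 lower in females, became 12 and 12 with TMM factors and 61 and 3 with the total of L1 reads. Sex, age and a possible difference in read length cannot be told apart here. Of the sequencing methods used in the study the labels do not say which applies to a library.

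UID-7523 was read in 2 of 6 uteri. Mouse 1324 had 87 reads (3.25 RPM) that covered 72.7% of the window, mouse 1004 had 8 reads (0.412 RPM) over 8.49%, and the uteri of mice 1534, 1338, 1325 and 1006 had 0. The mean of 0.611 ± 1.30 (SD, n = 6) thus rests on the uterus of mouse 1324, without which it was 0.0825. In contrast, all 12 testes had reads, from 6 to 76, with a mean of 1.03 ± 0.747 and a range from 0.138 to 2.77 RPM. The mean of the uteri was 0.594 times that of the testes. On the scale of reads per 100000 L1 reads, of which testes have more, the ratio turned to 1.21. The uterus of mouse 1324 was higher than every testis.

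In testes UID-7523 had its highest mean at 12.8 mo, with 1.06, 2.16 and 2.77 RPM, in a counting window of 5768 bases instead of 6668. At 7.6 mo values were 0.930, 1.11 and 1.15, at 22.3 mo 0.535, 0.546 and 0.744, and at 1.9 to 3.6 mo 0.138, 0.433 and 0.762. UID-12974, by comparison, had its highest mean in the testes of 7.6 mo, at 2.10, 3.46 and 6.93. No test between testis ages was made.

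The ovary was the other organ with regular UID-7523 reads. Reads were found in 8 of 9 ovaries, 2 to 16 each, with a mean of 0.239 ± 0.182 RPM, and mouse 1540 had 0. The 9 female lungs had no read, 1 of the 9 female brains had 2, and the male lungs, male brains and livers had none. Pooled over libraries, ovaries were at least 7.77-fold higher than female lungs, with a floor of 3 fragments, or 6 reads, over the 9 lungs. Against the brains the pooled ratio was 33.0, with a 95% exact interval of 5.48 to 1345 that counts 2 reads as 1 fragment and covers counting error only. UID-7523 did not pass the filter in the fit of organs. Without a filter it enters that fit almost only through its ovary reads, so no test against the brains is given. No test against the lungs is given, since all of them were at 0.

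In the fit of ovary ages UID-7523 passed the filter only through the 2 ovaries of 16.5 mo, with 12 and 16 reads. They had 0.341 and 0.498 RPM, against 0, 0.129 and 0.513 at 2.2 to 3.2 mo. The values overlapped, and no test is given for a locus that entered the fit through 1 of the groups compared.

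UID-4155 had few reads and was nearly restricted to uteri in these libraries. Mouse 1006 had 24 reads, mouse 1004 had 16, mouse 1534 had 6, mice 1338 and 1325 had 2 each, and mouse 1324 had 0. In RPM these were 0.748, 0.825, 0.224, 0.0566, 0.129 and 0, in the order given, and the mean was 0.331 ± 0.362 (SD, n = 6). The uteri of 16.5 mo were the highest pair, and mouse 1324, whose uterus was the highest for UID-7523 and second for UID-12974, had no read. At most 38.6% of the window was covered, in mouse 1006, so full-length transcription was not detectable at this depth.

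Outside uteri, UID-4155 had reads in 2 testes, 6 in mouse 1209 and 2 in mouse 1305, both of 7.6 mo. No read was counted in 9 ovaries, 9 female lungs, 9 female brains, 5 male lungs, 6 male brains and 12 livers. Pooled over libraries, uteri were at least 15.4-fold higher than ovaries, at least 12-fold higher than female lungs and at least 16.9-fold higher than female brains, with the same floor over each group. Against the testes the ratio of means was 17.3. UID-4155 was tested in no fit, since only uteri reached 10 reads.

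The 3 loci therefore did not share 1 pattern over the uteri. Mouse 1324 had 271 and 87 reads on UID-12974 and UID-7523 and none on UID-4155. Mouse 1006 had 125 and 24 on UID-12974 and UID-4155 and none on UID-7523. Over 68 libraries, Pearson's r of log2 (RPM + 0.05) was 0.54 between UID-12974 and UID-7523, 0.37 between UID-12974 and UID-4155 and 0.08 between UID-7523 and UID-4155. These libraries share animals and organs, so the coefficients are descriptions.

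By the same measure, the loci most like UID-12974 among 1482 loci with at least 10 reads in 3 or more libraries were UID-1772 (r = 0.85, chromosome 15), UID-793 (r = 0.71, chromosome 17) and UID-6402 (r = 0.70, chromosome 3). UID-1772 also had its highest mean level in uteri, 6.23 RPM against 3.07 in ovaries and 1.14 in testes, but its highest uterus was that of mouse 1006, with 576 reads. UID-793 and UID-6402 were highest in testes. The loci most like UID-7523 were UID-5162 (r = 0.87), UID-816 (r = 0.85) and UID-8867 (r = 0.85), all highest in testes on average. Of these, UID-8867 had 40 reads in the uterus of mouse 1324 and 18 in that of mouse 1004, the only uteri with UID-7523 reads, and 0 in the other 4. UID-5162 had 2 and 6 reads in the same uteri and 0 in the others. UID-816 had 2 and 4 there and 4 in the uterus of mouse 1006, where UID-7523 had 0. These counts partly follow from the choice of loci by likeness over the same libraries.

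The loci most like UID-4155, among 1483 loci, were UID-9760 (r = 0.76, chromosome 16), UID-9211 (r = 0.76, chromosome 1) and UID-13471 (r = 0.74, chromosome 4). All had their highest mean in uteri, at 28.6, 1.38 and 1.42 RPM, and all had 0 to 2 reads in the uterus of mouse 1324 and from 4 to 3291 in every other uterus. These counts partly follow from the choice of loci, since UID-4155 itself had no read in that uterus.

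Few reads were found on other L1 loci around the 3 loci, with 1 exception. Low counts are usual for L1 loci in these libraries. With 2 reads in the uterus of mouse 1338, UID-4155 ranked 178 among all 17019 loci there. The share of all loci without a read in any uterus was not counted, so the numbers below do not set these surroundings apart. Within 500 kb of UID-12974 lie 9 other full-length L1 loci, of which 8 had no read in any uterus. The exception, UID-13126, had 2 reads in 1 uterus. Within 500 kb of UID-7523, 9 of 10 loci had no read in any uterus. The exception, UID-7942, lies 78.5 kb away on the opposite strand, that of Gm26861, and had 10 reads in 1 uterus, that of mouse 1324. Within 500 kb of UID-4155, 10 of 12 loci had no read in any uterus, and UID-4512 had 4 reads in 1. The last, UID-3342, lies 211 kb away on the same strand and contains the processed pseudogene Rps24-ps3. It had 10174 to 17962 reads in each uterus and 28.9% to 43.1% of all L1 reads there, against 43.9% to 52.4% in male lungs, 25.8% to 43.3% in female lungs and 8.85% to 14.5% in testes. It enters every total of L1 reads used as a scale.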

How the data were processed

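For each library the authors deposited counts of reads per annotated full-length L1 locus and the fraction of the window, the element with its flanks, that any read covered. According to the methods and labels, strand-specific read pairs were aligned uniquely to mm10 with Bowtie, duplicates were removed, and bedtools counted sense reads per locus, before curation or normalization. For the brain of mouse 1325 the name of 1 of its files does not carry the mark of duplicate removal.

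The 17450 entries listed per library held 17019 different loci, used once each. Mapped reads were recovered as the value on which most curated loci coincide when deposited counts are divided by tabulated FPKM. In 3 male lungs of 12.8 mo and the liver of mouse 900 this was a minority of loci. Testes and livers of 22.3 mo were joined by coinciding reads, since joined by animal number few loci coincide. The uteri of mice 1534 and 1324 were both recovered at 26.75 M. No libraries of 1 organ had identical counts. The 12 rat libraries were not used.

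Groups, ages and animals come from the labels. The age of mouse 1540, 3.2 mo in the labels, differs in the supplement of the study. edgeR 4.0.16 (R 4.3.3) tested the counts by quasi-likelihood, with mapped reads as library sizes, a minimum of 10 reads in a number of libraries equal to the smaller group, and Benjamini-Hochberg adjustment over all loci tested at 0.05. SE is the log2 fold change over the root of F. A shared mouse number marks organs of 1 animal. Deviations of same-numbered libraries from the organ means correlated at 0.06 for lung and ovary, 0.14 for lung and brain and 0.16 for ovary and brain on average over 9 mice. On simulated counts for female lung against ovary, 100% of 158 loci changed 4-fold were called. On simulated counts for ovary 16.5 against 2.2 to 3.2 mo, 85.6% of 181 were called. The simulated counts had a preset spread, the same for all loci and not estimated from these libraries. The shares therefore do not say how many 4-fold changes the fits detect in the real data. Alternatives were TMM, the total of L1 reads, no filter, DESeq2 1.42.0, the animal as block and leaving out libraries. Blocks without a filter, the brain of mouse 1325 left out, and mapped reads joined by animal number were chosen after seeing the data, as was the floor of 3 fragments (6 reads) in place of 3 reads.

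Named are the 3 loci, the 3 loci most like each, L1 loci within 500 kb, and overlapping or nearest genes of GENCODE M21 on GRCm38. Members and lists were chosen with earlier results of these data known. Jun and Rps24-ps3 were named after their positions were seen. Tables used Python 3.11.15 and pandas 2.3.3, and figures matplotlib 3.10.9. L1 element sequences were not analysed here.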

Additional observations from a re-analysis of the deposited data

Results flagged for a closer look

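A library far from the others of its organ, by its gap to the next value over the range, was flagged in 3 of 10 groups. These were groups of 4 to 10 libraries in which a locus had reads. The rate of about 1 in 20 groups by chance holds for normally spread values, not for groups with many libraries at 0. The share flagged is therefore a description only. For UID-7523 the uterus of mouse 1324, at 3.25 reads per 1 M mapped reads, stood apart from the next uterus at 0.412. The uterus values are among those that chose this locus. For UID-12974 the male lung of mouse 1303, at 2.68, stood apart from the next male lung at 1.17. For UID-7523 the female brain of mouse 1338, at 0.0607, was the only 1 of 9 brains with reads, and it had 2. A library that alone has reads is flagged whatever its value.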

How the results depend on the processing

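The ratio of uterus to the next organ kept its direction for UID-12974 (1.79 to 2.64 without each uterus in turn) and UID-4155 (12.2 to 20.8) under every alternative run. For UID-7523 it was 0.0802 to 0.713 without each uterus, the lowest without mouse 1324, and turned to 1.21 per 100000 L1 reads. For UID-12974 the log2 fold change of lung against ovary turned to 0.12 with TMM and 0.17 with DESeq2. The call of lung against brain was lost with the total of L1 reads (0.32), without a filter (1.18, with a block 1.18) and with DESeq2 (0.66), and that of ovary against brain with TMM (0.71), the total of L1 reads (0.52), no filter (1.42, with a block 1.20) and DESeq2 (0.49). With the animal as replicate block the log2 fold changes were -0.02 (lung against ovary), 1.19 (lung against brain) and 1.21 (ovary against brain), and no call of UID-12974 changed. Female against male lung turned to 1.97 with the total of L1 reads and ranged from -1.06 to 0.14 without each lung. Lung by age turned to -0.0741 with TMM and -0.25 with DESeq2 and ranged from -0.90 to 1.12 without each lung. Ovary by age ranged from 1.80 to 2.67 without each ovary. Where no value above shows it, the cause was not tested.

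Without a filter, loci called rose from 52 to 303 (lung against ovary; 165 with a block), from 70 to 584 (lung against brain; 345) and from 66 to 695 (ovary against brain; 370), of 4607 tested instead of 109. Between the sexes 18 became 64 with the total of L1 reads and 12 to 37 without each lung (37 without mouse 1209). By age, ovaries went from 0 to 1 with TMM, 11 with DESeq2 and 0 to 5 without each ovary (5 without mouse 1006, 4 without mouse 1534), and lungs from 5 to 3 with TMM, 2 with the total of L1 reads, 3 without a filter, 3 with DESeq2 and 3 to 6 without each lung. Leaving out a library leaves 1 in some groups, which is then assumed to vary like the others.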
